A study of Mus musculus with 3 samples.

Results

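Rn45s is the gene name for the precursor of the ribosomal RNAs. The stretch described here is the copy of it placed on chromosome 17 of the mm9 mouse genome, chr17:39979942-39985774, with 5 kb on either side. It is 1 gene, selected on its coverage in these files: earlier results had shown a high level there and a lower value in litter 2. These choices rest on the same coverage, so all values below are descriptions and no test is given. RNA was measured by sequencing in 2-cell mouse embryos collected on embryonic day 1.5. There was 1 group of 3 litters, each a separate library. The mothers were LSD1 FL/FL, homozygous for a floxed LSD1 allele, and ZP3::Cre negative, so that the recombinase of the oocyte was absent. The fathers were wild type and are given as CB6 in one field of the labels and as C57/Bl6J in another. The females were of mixed strain, and each library pools the embryos of a litter. Nuclear alignments numbered 34014013, 32431630 and 40474940 in litters 1, 2 and 3. They began at 9460348, 11366964 and 10508870 different positions in the same order, so litter 2 had the fewest alignments and the most start positions.

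RNA polymerase I transcribes the ribosomal genes in the nucleolus as a long precursor. The precursor begins with an external transcribed spacer, followed by 18S RNA and an internal spacer, and it goes on to the 5.8S and 28S RNAs. The spacers are cut away and degraded, and the 18S RNA, which forms the core of the small ribosomal subunit, is kept. In the mouse, ribosomes stored by the oocyte serve the first cleavages, and synthesis of new ribosomal RNA resumes during the 2-cell stage. The ribosomal genes lie in tandem arrays that genome assemblies hold only in part, so reads from any of the repeats can be placed on an assembled copy such as this one.

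The parts of the gene were located as follows. In GENCODE M21, made for GRCm38, the locus on chromosome 17 holds Gm26917, a lincRNA gene of 3329 bases (39843013 to 39846341, plus strand). After a gap of 11 bases comes an rRNA transcript of CT010467.1 of 1849 bases (39846353 to 39848201, annotated on the minus strand), which RefSeq lists with the same length as Rn18s-rs5, a pseudogene of 18S RNA. The minus-strand transcript, read in reverse complement, is called the 18S copy here. Coordinates were not carried over to mm9. Instead the distances were used: 3340 bases from the start of Gm26917 to the 18S copy, and 626 bases from the end of the 18S copy to the end of CT010467.1. The annotated span is 5815 bases and the mm9 gene 5833, so these distances place the 18S copy's start between bases 3341 and 3359 of the gene. In the coverage, the first base with at least 20 alignment starts in every litter was base 3353 (39983294 on mm9), and it was taken as the start. The upstream spacer is then 3352 bases long, the 18S copy 1849 and the downstream spacer, which follows the 18S copy as the internal spacer does, 632. Because the boundary was set from the coverage, positions in the 18S copy carry an uncertainty of several bases.

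The sequences below show the change at the 5′ edge of the 18S copy, the stretch of highest coverage and the 3′ end where coverage ceased. They are from GENCODE M21 transcripts of GRCm38 (the first from the Gm26917 transcript, the others from the reverse complement of the rRNA transcript of CT010467.1), taken at the stated distances from the transcript's end, and identity with mm9 was not compared. The first is the last 72 bases of the upstream spacer transcript and the second the first 72 bases of the 18S copy. In the third, bases 1434 to 1657 of the 18S copy, capitals mark the stretch with at least 0.5 of the maximum coverage in every litter. In the fourth, bases 1719 to 1849, capitals mark the bases after the last deep alignment.
Spacer end: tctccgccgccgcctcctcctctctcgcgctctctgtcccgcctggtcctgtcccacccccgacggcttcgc
18S start: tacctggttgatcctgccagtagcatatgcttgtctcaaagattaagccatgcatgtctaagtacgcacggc
18S peak: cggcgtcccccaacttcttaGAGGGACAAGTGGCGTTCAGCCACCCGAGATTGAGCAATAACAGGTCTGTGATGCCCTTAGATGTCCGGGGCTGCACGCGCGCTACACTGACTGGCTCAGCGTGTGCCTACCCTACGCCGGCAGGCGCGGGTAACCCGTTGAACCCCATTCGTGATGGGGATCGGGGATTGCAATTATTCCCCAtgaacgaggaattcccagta
18S end: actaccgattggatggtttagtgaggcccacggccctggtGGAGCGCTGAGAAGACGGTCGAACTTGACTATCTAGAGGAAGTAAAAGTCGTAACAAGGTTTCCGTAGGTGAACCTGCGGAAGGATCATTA

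The spacers are richer in G and C than the 18S copy. Over whole transcripts, G and C made up 69.1% of the Gm26917 transcript, 55.4% of the 18S copy and 71.0% of the 587 bases of the Gm42418 transcript that follow the 18S copy. Under the peak the share was 59.8%. Base composition changes together with coverage at the 5′ edge of the 18S copy. At the 3′ end the coverage falls inside the 18S copy, before its edge. In the thinly covered 91 bases there, printed above in capitals, the share of G and C was 47.3%, lower than in the whole 18S copy. The part of base composition in the coverage was not tested. No transcript of a gene outside the locus shares a 31-base word, on either strand, with any of the 3 parts in the GENCODE M21 transcript set.

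Nearly all alignments in the gene lay in the 18S copy, and both spacers were thinly covered in every litter. Litter 1 had 593407 alignments wholly inside the gene, litter 2 had 153084 and litter 3 had 623685. This was 1.74% of nuclear alignments in litter 1 (95% Wilson interval 1.740% to 1.749%), 0.472% in litter 2 (0.4697% to 0.4744%) and 1.54% in litter 3 (1.537% to 1.545%). The intervals cover counting error only, since the amplified reads carry no molecular identifiers and can repeat a molecule. Per kb of gene and per 1000000 nuclear alignments (RPKM), the level was 2991, 809 and 2642 in litters 1, 2 and 3, or 2147 ± 1172 (SD, n = 3). Litter 2 was the lowest, and litters 1 and 3 lay close together. The values are shares of each library's nuclear alignments and do not give an amount of RNA per cell. In pooled embryos, a smaller part of the cells with this RNA and a smaller share of it per cell cannot be told apart.

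The 18S copy held 99.9% of the gene's alignments, 99.97% and 99.9% in litters 1, 2 and 3. Its mean coverage, the number of alignments over a base, was 23086, 5959 and 24262 in litters 1, 2 and 3. That of the upstream spacer was 8.87, 0.881 and 12.6, and that of the downstream spacer was 15.6, 0.172 and 3.29. The 18S copy therefore exceeded the upstream spacer by 2602 fold in litter 1, 6767 fold in litter 2 and 1927 fold in litter 3. The order of the 2 spacers was not the same in all litters: the downstream spacer was 1.76 times the upstream one in litter 1, 0.196 times in litter 2 and 0.262 times in litter 3. The mean ratio to the upstream spacer was 3766, and it was 3469 with the boundary set 100 bases further upstream. With the boundary 100 bases further downstream, which counts deeply covered bases of the 18S copy as spacer, it fell to 221. The median coverage over all bases of the gene was 9, 1 and 11 in litters 1, 2 and 3, far below the means of 7325, 1890 and 7699.

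**Figure D1:**
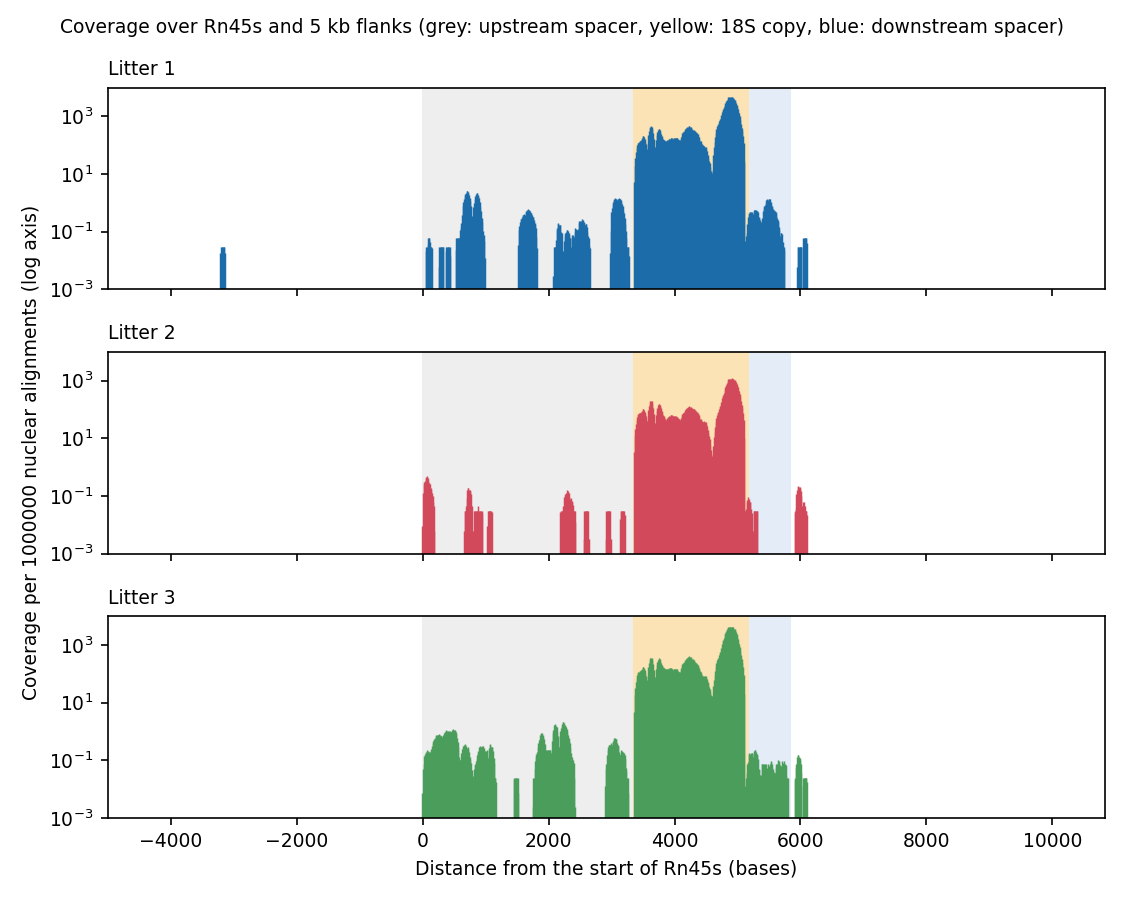
Coverage per 1000000 nuclear alignments (log axis, 10-base bins) against the distance from the start of Rn45s in bases, 1 panel per litter, with the upstream spacer in grey, the 18S copy in yellow and the downstream spacer in blue. The 18S copy stands at 679, 184 and 599 on this scale in litters 1 to 3 on average, the upstream spacer at 0.261, 0.0272 and 0.311, and the flanks are almost bare.

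The upstream spacer was covered in patches that differed between litters. It held 413, 40 and 584 alignments in litters 1, 2 and 3. These began at 273, 37 and 412 different positions, or 1.51, 1.08 and 1.42 alignments per start position. Of its 3352 bases, 1877, 973 and 2252 were covered in litters 1, 2 and 3. Only 653 bases were covered in all 3 litters, 23.6% of the 2765 covered in any. A single start position was used in all 3 litters, of 671 used in any. By contrast, 1506 of 1613 start positions of the 18S copy were used in all 3.

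By segments of 500 bases, the patches of the upstream spacer stood at different places. Bases 1 to 500 held 4, 20 and 203 alignment starts in litters 1, 2 and 3. Bases 501 to 1000 held 215, 8 and 54. Litter 1 was thus highest in the second segment and litter 3 in the first. Bases 1001 to 1500 held 0, 1 and 17 starts, and bases 1501 to 2000 held 49, 0 and 56. A count of 0 allows up to 3 alignments by counting error alone. Bases 2001 to 2500 held 25, 8 and 200, and bases 2501 to 3000 held 25, 2 and 20. Litter 2 had the fewest starts in 4 of these 6 segments and lay between the other litters in the first and the third.

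The downstream spacer, the counterpart of the internal spacer, held 129, 1 and 26 alignments in litters 1, 2 and 3, at 100, 1 and 23 start positions. Litter 1 was the highest and litter 2 was below the limit of 3 that a count of 0 allows. Alignments that crossed from the 18S copy into this spacer, with at least 10 bases on either side, numbered 14, 2 and 6 in litters 1, 2 and 3. Between the upstream spacer and the 18S copy, 0 alignments crossed in each litter, which allows up to 3 per litter. The few crossing alignments were thus seen at the 3′ edge of the 18S copy and not at its 5′ edge, and they carry no strand. The edges were set in unlike ways, the 5′ edge where deep starts began in the coverage and the 3′ edge by annotated length. Deep crossing at the 5′ edge was excluded by that choice, so nothing is read from the difference between the edges.

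Outside the gene the sequence was almost bare. The upstream flank of 5000 bases held 1 alignment in litter 1 and 0 in litters 2 and 3, and the downstream flank held 3, 9 and 7. No covered base lay beyond base 276 of the downstream flank in any litter. There litter 2 was highest in number, although its counts were small. In no litter did an alignment cross the gene's end by at least 10 bases on either side.

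The 18S copy was covered over its whole length in litter 2 and over 1837 and 1835 of its 1849 bases in litters 1 and 3. Of 1778 possible start positions, 1566, 1516 and 1576 were used in litters 1, 2 and 3, so the litters differed far less in start positions than in alignments. With 153038 alignments drawn from each litter, the number in litter 2, the expected start positions (from the hypergeometric formula) were 1522, 1516 and 1542. In the whole gene, 1955, 1557 and 2018 start positions were used, and 1651, 1557 and 1680 were expected at 153084 alignments. The 18S copy had 379, 101 and 395 alignments per start position. It was near its limit of positions, so start positions do not follow its amount.

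Coverage within the 18S copy was concentrated near its 3′ end. Bases 1454 to 1637, a stretch of 184 bases, had at least 0.5 of the maximum in all litters, and this stretch is printed above in capitals. Its mean coverage was 134793, 32618 and 147462 in litters 1, 2 and 3. It held 58.0%, 54.5% and 60.4% of the aligned bases of the gene. Compared with the rest of the 18S copy up to the last deep alignment, its mean coverage was 11.9, 10.2 and 13.1 fold higher, or 11.7 ± 1.43 fold (SD, n = 3). The maximum lay at base 1550 in litters 1 and 3 and at base 1557 in litter 2, with coverage of 161044, 176229 and 39060 in that order.

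The 5 start positions with the most alignments all lay in this region, at bases 1459, 1479, 1500, 1548 and 1549 of the 18S copy. The first in rank, base 1500 (39984793 on mm9), held 5162, 1203 and 4986 starts in litters 1, 2 and 3. At base 1548 the counts were 4539, 1031 and 4674, and at base 1459 they were 4310, 954 and 4559. Litter 2 was lowest at each of the 5, at 0.246 to 0.270 of the mean of litters 1 and 3 after scaling. Base 1500 held 0.870%, 0.786% and 0.799% of all starts in the gene in litters 1, 2 and 3, so no single start made up the peak.

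**Figure D2:**
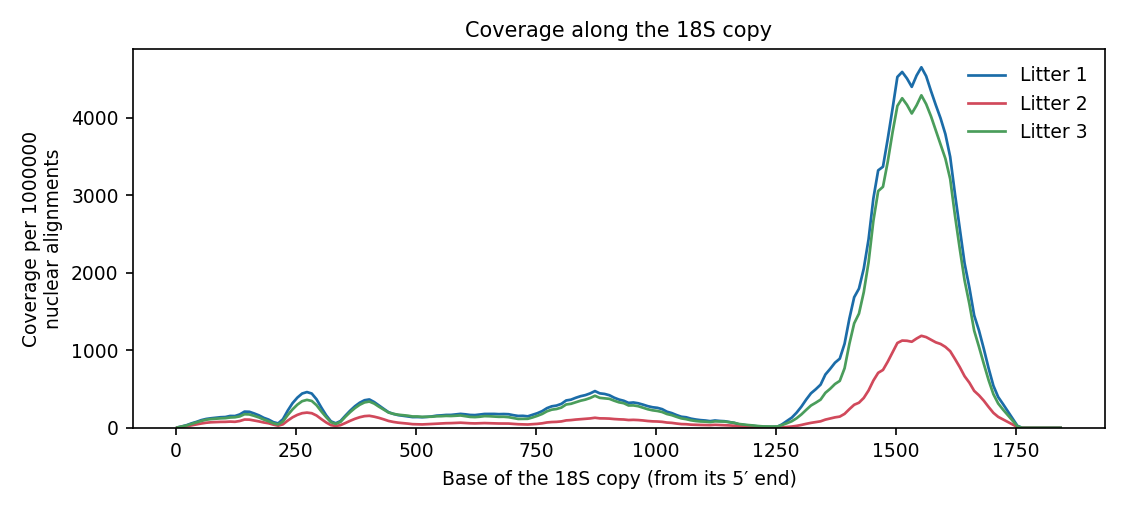
Coverage per 1000000 nuclear alignments (10-base bins) along the bases of the 18S copy, 1 line per litter. The 3 lines rise to a peak between bases 1454 and 1637, with maxima at base 1550, 1557 and 1550 in litters 1 to 3, and litter 2 runs below the others up to base 1700.

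Coverage dipped at several places that the litters shared. Near base 210 of the 18S copy the lowest coverage was 1566, 829 and 1589 in litters 1, 2 and 3, and near base 332 it was 1578, 596 and 1621. In both dips the lowest base was the same in all litters. The deepest dip before the peak had 363 at base 1241 in litter 1, 63 at base 1256 in litter 2 and 657 at base 1253 in litter 3. No alignment of any litter began at bases 150 to 204, a run of 55 bases. The dip near base 210 follows this run directly.

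At the 3′ end the coverage stopped short of the end of the 18S copy. The last base with at least 20 starts in every litter was base 1687, so that the last deep alignment ended at base 1758. Over the 91 bases after it, printed above in capitals, mean coverage was 7.81, 1.90 and 3.30 in litters 1, 2 and 3. Up to that base it was 24280, 6268 and 25518. The last bases of the 18S copy were thus covered like the spacers and not like the rest of the 18S copy, in every litter. Near this end, no alignment of any litter began at bases 1690 to 1752, a run of 63 bases, or at bases 1754 to 1770, a run of 17.

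Base by base, the profile of starts was alike between litters. Over 1574 to 1582 start positions of the 18S copy, Pearson correlations of log2(count + 1) between litters 1 and 2 stood at 0.957, between litters 1 and 3 at 0.983 and between litters 2 and 3 at 0.959. The Spearman values for the same pairs were 0.941, 0.985 and 0.9496. The points share the sequence of the copy and lie side by side, and no p-value is given. The pairs with litter 2, which has the fewest alignments here, were less alike than the pair of litters 1 and 3.

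Litter 2 was lower than both other litters in every 100-base bin of the 18S copy up to base 1700, but not by the same factor. After base 1758, where coverage was low in all litters, it was not the lowest in every 10-base bin. For the gene, its RPKM was 0.287 times the mean of litters 1 and 3. Among 6012 windows of 10 kb elsewhere that averaged 1000 alignments or more, 3.66% had a ratio that low or lower, and with a minimum of 100 alignments 14.6% of 30742 windows did. In the better covered windows the median ratio was 0.931, and 5% of windows lay below 0.339. Litter 2 was the lowest of the 3 litters in 37.6% of them. The ratio of Rn45s chose the gene, so nothing is read from its place in this distribution.

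**Figure D3:**
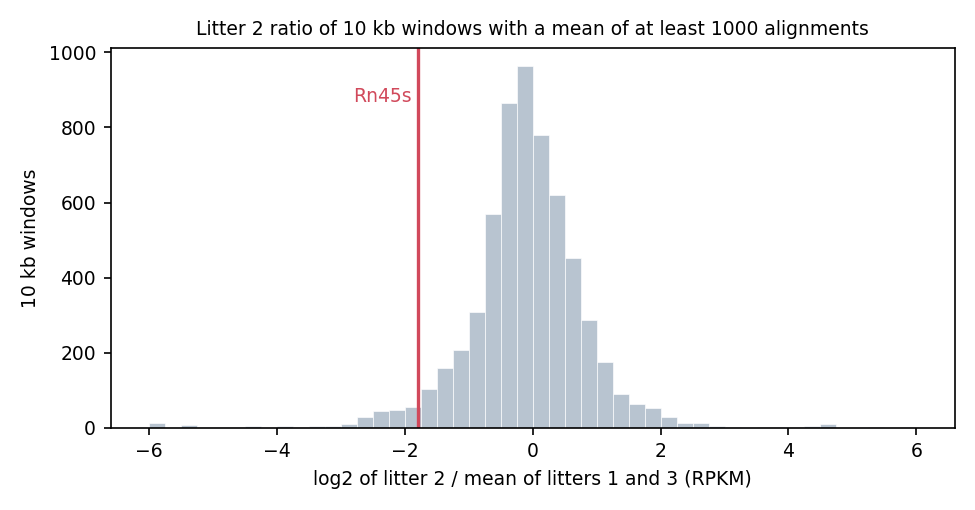
Number of 10 kb windows (averaging 1000 alignments or more) by the log2 of litter 2 over the mean of litters 1 and 3 in RPKM, with values beyond 6 on either side placed in the end bins. The red line marks Rn45s, at a ratio of 0.287, to the left of the median window at 0.931.

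By parts, the ratio of litter 2 to the mean of litters 1 and 3 was 0.288 in the 18S copy and 0.0928 in the upstream spacer (RPKM). In the upstream spacer it rests on 40 alignments in litter 2. In the downstream spacer it rests on 1, and no ratio is given. In start positions without scaling, the ratio was 0.965 in the 18S copy and 0.108 in the upstream spacer. The spacers, unlike the 18S copy, have most of their positions unused, so their start positions can follow their amount.

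Along the 18S copy in bins of 100 bases, the scaled coverage of litter 2 was 0.598 times the mean of litters 1 and 3 at bases 1 to 100. It was 0.441 at bases 301 to 400, 0.358 at bases 501 to 600 and 0.294 at bases 801 to 900. After 0.419 at bases 1101 to 1200 it was 0.170 at bases 1201 to 1300, its lowest, and 0.323 at bases 1601 to 1700. The ratio of litter 3 to litter 1 ranged from 0.671 at bases 1301 to 1400 to 0.982 at bases 401 to 500. In none of the 17 bins did litter 2 reach the other litters. The litter 2 ratio was thus highest at the 5′ end and lowest at bases 1201 to 1300, where scaled coverage was also the lowest of the 17 bins. In scaled coverage, bases 1 to 100 stood at 82.7, 47.1 and 74.7 in litters 1, 2 and 3, and bases 1201 to 1300 stood at 59.5, 8.88 and 45.1. Each litter is a single library, so these differences along the RNA have no replicate.

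**Figure D4:**
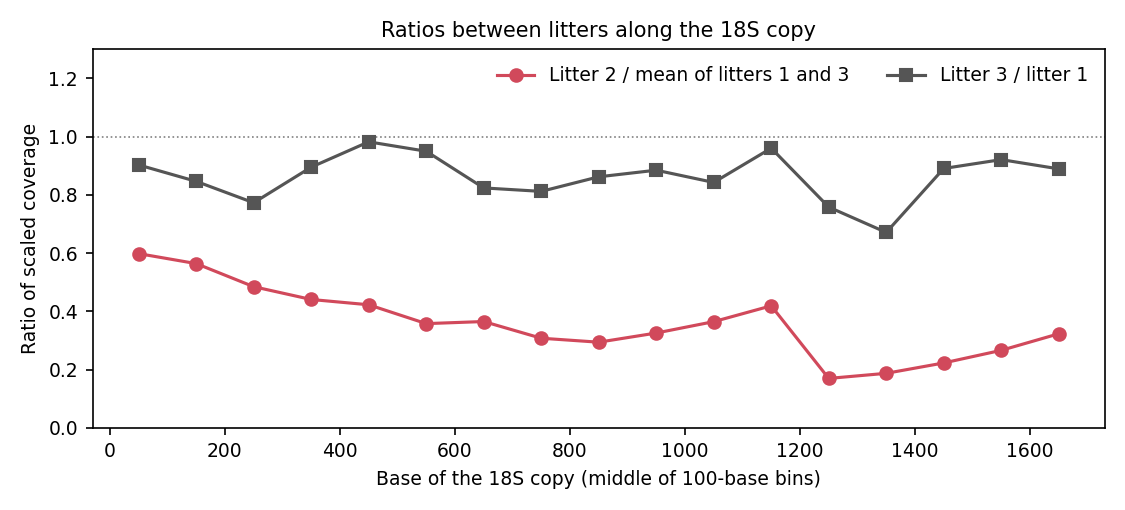
Ratio of scaled coverage in 100-base bins along the 18S copy, for litter 2 over the mean of litters 1 and 3 (circles) and for litter 3 over litter 1 (squares), with a dotted line at a ratio of 1. The circles fall from 0.598 at the 5′ end to 0.170 at bases 1201 to 1300, and the squares stay between 0.671 and 0.982.

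Windows whose pattern over the 3 litters was most like that of Rn45s were named by the Euclidean distance between centred log2 levels (RPKM + 0.1), over the same windows. The nearest lay at 66.77 Mb on chromosome 13, at a distance of 0.0497, with 1971, 505 and 2052 alignments in litters 1, 2 and 3. The next were at 23.01 Mb on chromosome 17, with 1955, 494 and 2181, and at 120.42 Mb on chromosome 2, with 6316, 1714 and 6839. The window at 3.75 Mb on chromosome 8 held 23622, 6490 and 25866, and that at 100.42 Mb on the X chromosome held 1307, 339 and 1426. The likeness rests on 3 litters only, and genes in these windows were not analysed here.

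Start counts of the 18S copy recurred in runs at other nuclear places, at 2 with a minimum of 50 alignments and at 3 with a minimum of 20. A start position was taken to recur when its counts in litters 1, 2 and 3 were the same 3 numbers at a position elsewhere. Of 602 start positions of the gene where each litter had 50 alignments or more, 59 recurred, or 9.80% (95% Wilson interval 7.67% to 12.4%). All 602 lay in the 18S copy, and all 59 were in runs of at least 5 positions with a constant or mirrored offset. The interval treats positions as separate, although those of a run recur together, so it is too narrow. Among 21654 other nuclear positions with the same minimum, 39.6% recurred somewhere. The share in the gene was lower than elsewhere also at a minimum of 20 (22.1% of 1128 against 64.4% of 75655) and of 100 (1.17% of 343 against 25.5% of 10414). At the minimum of 20, 249 positions of the gene recurred and 243 of them lay in the 3 runs. At the minimum of 100, 4 recurred and 0 lay in a run. With higher counts, exact equality is lost when a single read differs between places, so exact recurrence can miss places that share most of their alignments. The gene and the other positions were matched in the minimum only, not in depth above it. Of the gene's 1128 positions, 343 reached 100 alignments in every litter, against 10414 of 75655 elsewhere. The lower share is therefore not read as less recurrence in the gene.

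The longest shared stretch lay on chromosome 6, from 3150767 to 3151670 on mm9, in the same orientation. It paired with starts at bases 330 to 1162 of the 18S copy. There the gene held 88523, 27915 and 93158 alignments in litters 1, 2 and 3, and the chromosome 6 place held 86561, 27279 and 91230, or 97.8%, 97.7% and 97.9% of the gene's number. Counts were equal in all litters at 281 of 833 positions. Of 168 positions with that minimum of 50, 152 (90.5%) were within 10% of the gene's count in each litter. The totals hide departures in both directions. In 25-base bins of starts per 1000000 nuclear alignments (mean of the litters), the bin centred on base 1037.5 held 51.7 at chromosome 6 against 24.2 in the gene. The bin at base 1112.5 held 7.18 against 19.2, and that at base 687.5 held 22.0 against 32.1.

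The shared stretch on chromosome 16 was short, from 18533282 to 18533427, in reverse orientation. It paired with starts at bases 1 to 75 of the 18S copy, its 5′ end, whose sequence is printed above. Counts were equal in all litters at 69 of 75 positions. The place held 4303, 2395 and 4676 alignments in litters 1, 2 and 3, which was 98.9%, 99.5% and 99.5% of the gene's number there. In total, both stretches thus held nearly the same number of alignments as Rn45s in every litter, although the chromosome 6 place departed from it in some bins.

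The stretch on chromosome 1, from 56838891 to 56839238 in reverse orientation, paired with starts at bases 1259 to 1535, which overlap the peak. It was found at a minimum of 20 alignments, from 7 positions, and 10 of 277 positions were equal in all litters. The gene held 308891, 65954 and 324475 alignments in litters 1, 2 and 3 over these starts, and the chromosome 1 place held 173447, 37292 and 180272. This was 56.2%, 56.5% and 55.6% of the gene's number, so in total the place held fewer alignments than the gene, by nearly the same share in each litter. The shortfall was not even along the stretch. The bins centred on bases 1387.5 and 1412.5 held 0.397 and 0.481 starts per 1000000 nuclear alignments at chromosome 1, against 468.8 and 540.8 in the gene. Those at bases 1287.5 and 1312.5 held 84.6 and 128.8 against 89.5 and 134.7, close to the gene. Of 195 positions with that minimum of 50, 16 (8.21%) were within 10% of the gene's count.

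**Figure D5:**
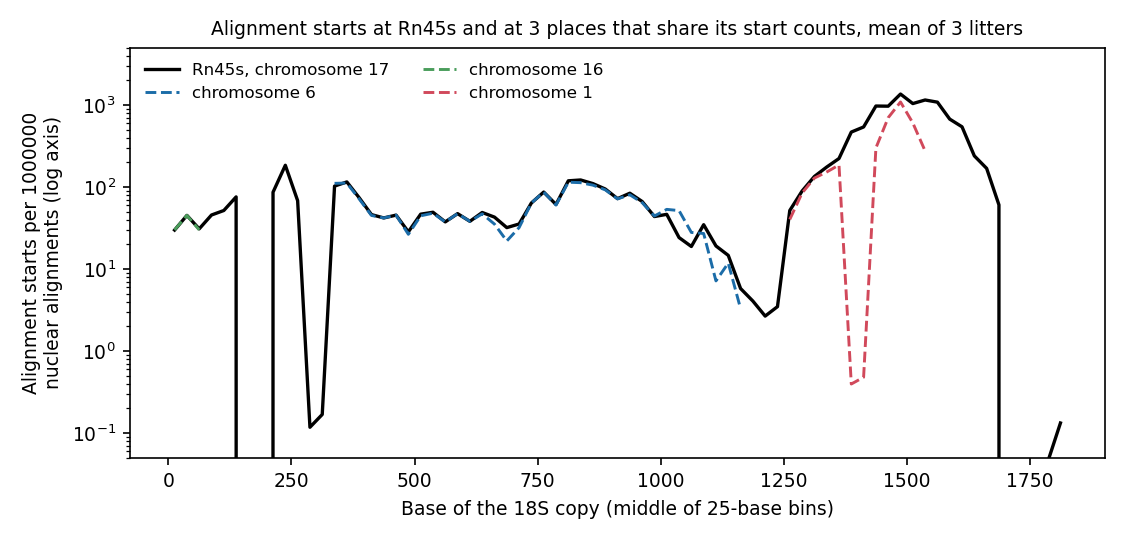
Alignment starts per 1000000 nuclear alignments (log axis, 25-base bins, mean of 3 litters) along the 18S copy, at Rn45s (black) and at the paired places on chromosomes 6, 16 and 1 (dashed). The lines of chromosomes 6 and 16 lie on that of Rn45s over most of bases 330 to 1162 and 1 to 75, apart from bins such as that at base 1037.5, while that of chromosome 1 lies below it over much of bases 1259 to 1535 and drops to 0.397 at base 1387.5.

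The lower value in litter 2 was also present at the paired places. These places were found by counts equal to the gene's in all 3 litters, so their like ratios follow from that choice. The same reads may be counted at both places, which was not tested, so the ratios are not taken as separate observations. The ratio of litter 2 to the mean of litters 1 and 3 was 0.351 in the stretch paired with chromosome 6, both in the gene and at the other place. It was 0.609 and 0.610 for chromosome 16, and 0.238 and 0.241 for chromosome 1, in the same order. Starts of the gene outside all 3 stretches held 191643, 56807 and 201352 alignments in litters 1, 2 and 3, and there the ratio was 0.330. This is 32.3%, 37.1% and 32.3% of the gene's alignments. The stretch paired with chromosome 1, where few counts were equal, held 52.1%, 43.1% and 52.0% of the gene's alignments.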

How the data were processed

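Per the labels' protocols, embryos were lysed directly, RNA was amplified with SPIA (a method that copies RNA into cDNA at constant temperature), the cDNA was sheared and Illumina libraries were made. The aligner was Bowtie and the genome mm9, according to the submitters' processing notes; its version and its treatment of mismatches and of reads with several matches are not stated there. The authors deposited signal: per the file headers, a bedGraph of unscaled coverage per base made from sorted alignments.

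Every nuclear track resolved into alignments of 72 bases without gaps (0 starts below zero), which gives the start of each alignment but no strand. The recovery was run on simulated data, where it returned 100% of 200000 positions and 100% of the 35 positions of a planted copy. The simulated coverage was made of 72-base alignments without gaps and the planted copy had identical counts, so this checks the code only. It does not show how well places with partly equal counts are found. An alignment belongs to a part if it lies wholly inside it. The gene, its parts and the lists were chosen with earlier results of these data known. Rn45s, its parts, its 500-base segments, the 5 highest start positions, the 5 most like windows and places sharing at least 5 start counts were named by rule. The 100-base bins, the peak stretch, the dips, the 3′ end and the crossing alignments were chosen after seeing the data. An annotation of mm9 was not used here, so genes of RNA polymerase I, processing factors and cell type markers were not analysed here. With 1 group, p-values are not given, and alternatives (scaling, distinct starts, boundary, minimum counts, each litter left out) are in the closing section. Python 3.11.15, numpy 2.4.6, scipy 1.17.1 and matplotlib 3.10.9 were used.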

Additional observations from a re-analysis of the deposited data

How the results depend on the processing

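Values are called unchanged here within 1 SD over litters, or within the counting interval where there is no SD, and 18 of 35 alternative values were. Leaving 1 of 3 litters out of a mean always moves it by less than 1 SD. Those means were therefore unchanged by construction, and the count of 18 includes them. The mean level of Rn45s moved to 30.6 with each start position counted a single time, both in the gene and in the nuclear total. It was 1725 to 2816 RPKM with 1 litter left out. The ratio of litter 2 to the mean of litters 1 and 3 was below 1 under all 9 alternatives. The low value in litter 2 chose the gene, and the alternatives reuse the same alignments, so this is not separate support. With litter 1 or litter 3 left out, the ratio had to stay below 1, since litter 2 was below both. The ratio was 0.284 without the gene in the nuclear total, 0.264 with the median of ratios over windows and 0.271 to 0.306 without litter 3 or litter 1. With distinct start positions it was 0.687 after scaling to each library's nuclear start positions, of which litter 2 had the most, and 0.784 without scaling. Among alternatives added after seeing the data, it was 0.330 for starts outside the shared stretches, 0.0928 in the upstream spacer and 0.321 in the 18S copy without its peak. The mean ratio of the 18S copy to the upstream spacer was 3469 with the boundary 100 bases upstream and 221 with it 100 bases downstream, inside the 18S copy. With distinct start positions it was 30.5. It was 2265 without litter 2 and at most 4685 with another litter left out. By median coverage it could not be given, since the upstream spacer's median was 0 in litter 2. The share of recurring positions was 22.1% at a minimum of 20 alignments, 1.17% at 100 and 13.5% to 15.9% with 2 litters compared. Windows at or under the Rn45s ratio made up 14.6% at a minimum of 100 alignments. No paired analysis was possible because there is 1 group. Values of the spacers in litter 2 rest on 40 alignments or fewer per spacer, which limits their precision.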
